A study of Homo sapiens with 6 samples.

Results

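The genes described here are 10 chemokines of the CXC and CC families, CXCL1, CXCL2, CXCL3, CXCL5, CXCL6, CXCL8, CXCL10, CXCL16, CCL2 and CCL20, taken by symbol from the 35993 genes of the deposited table. RNA was sequenced from an established human cell line of pancreatic carcinoma, MIA PaCa-2, in 3 untreated libraries and 3 libraries from cells given rhCYGB, a His-tagged recombinant human cytoglobin expressed in E. coli, at 4 µM for 48 h. The paper reports that its purified rhCYGB was free of endotoxin contamination and not toxic in vitro. The protocol listed for both groups moved the cells to medium with 1% FBS on the day before rhCYGB was added. The labels call the untreated group only control and name no carrier solution or inactive protein. They do not say whether the libraries of a group came from separate cultures, so all p-values here measure the spread between these libraries, which may be technical. The 10 genes were chosen with the contrast between the groups known. Their differences between the groups are therefore described and not tested.

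Chemokines are small secreted proteins that guide the movement of leukocytes by binding G protein-coupled receptors. The CXC chemokines CXCL1, CXCL2, CXCL3, CXCL5, CXCL6 and CXCL8 carry a glutamate-leucine-arginine motif, act through the receptors CXCR2 and, for CXCL6 and CXCL8, also CXCR1, and attract neutrophils. CXCL10 binds CXCR3 and is induced by interferons. CXCL16 is made as a transmembrane protein that binds CXCR6 and is released from the cell surface by ADAM proteases. CCL2 attracts monocytes through CCR2, and CCL20 attracts cells that carry CCR6. In many epithelial and cancer cells the genes for the neutrophil-attracting CXC chemokines are induced through NF-kB, a transcription factor that binds short sites near their transcription starts, and the resulting mRNAs are short-lived because of AU-rich elements.

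Promoters of 8 of the 10 genes were present in the RefSeq table of GRCh38.p14, CXCL16 and CCL2 being the other two. The 120 bases before the transcription start are shown for the CXC genes of the chromosome 4 cluster, because these windows hold the NF-kB motif and show which members of the cluster are near copies of each other. Sequences run 5′ to 3′ on the strand of the gene and end at the base before the start. Capitals mark matches to either of 2 overlapping NF-kB motifs, GGAATTTCC and a looser one that reads GGG, any 2 bases and TTTCC.
CXCL1, plus strand, chr4:73869273-73869392: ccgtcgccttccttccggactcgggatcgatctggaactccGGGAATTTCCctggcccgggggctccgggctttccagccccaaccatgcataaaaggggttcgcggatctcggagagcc
CXCL2, minus strand, chr4:74099196-74099315: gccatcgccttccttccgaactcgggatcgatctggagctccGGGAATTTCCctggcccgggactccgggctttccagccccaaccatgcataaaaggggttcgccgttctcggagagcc
CXCL3, minus strand, chr4:74038690-74038809: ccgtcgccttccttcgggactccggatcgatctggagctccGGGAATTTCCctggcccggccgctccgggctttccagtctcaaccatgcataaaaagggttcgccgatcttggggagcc
CXCL5, minus strand, chr4:73998678-73998797: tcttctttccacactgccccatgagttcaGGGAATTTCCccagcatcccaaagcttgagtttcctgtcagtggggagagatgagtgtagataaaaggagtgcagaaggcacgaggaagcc
CXCL6, plus strand, chr4:73836558-73836677: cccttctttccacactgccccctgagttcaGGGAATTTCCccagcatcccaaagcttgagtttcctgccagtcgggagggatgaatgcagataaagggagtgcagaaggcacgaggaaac
CXCL8, plus strand, chr4:73740449-73740568: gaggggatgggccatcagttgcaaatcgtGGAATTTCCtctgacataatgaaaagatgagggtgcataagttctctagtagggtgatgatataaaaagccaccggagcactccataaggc
In a global alignment of these windows CXCL1 and CXCL2 were 93.4% identical, CXCL1 and CXCL3 90.8%, and CXCL2 and CXCL3 88.4%. CXCL5 and CXCL6 were 90.9% identical to each other. CXCL8 had no near copy among them, with between 43.6% and 48.8% identity to the other windows. CXCL1, CXCL2 and CXCL3 shared between 49.2% and 52.7% with CXCL5 and CXCL6.

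Over the whole promoter entries, which run from 250 bases before to 50 bases after the start, GGAATTTCC was found on either strand in 7 of the 8 chemokine promoters and in 129 of 27305 promoters of the table (0.472%, 1 promoter a gene). The looser NF-kB motif was found in 6 of the 8, those of CXCL1, CXCL2, CXCL3, CXCL5, CXCL6 and CCL20, and in 523 of all promoters (1.92%). Matches in CXCL1, CXCL2 and CXCL3, and those in CXCL5 and CXCL6, lie in near copies and are not separate cases. The motifs of the neutrophil-attracting genes began between 77 and 91 bases before the start. In CXCL8, the AP-1 motif TGANTCA lay from position -137 to -131, where -1 is the base before the start. That motif was in 7.76% of all promoters and in no other of the 8. The interferon response motif, TTTC and TTTC with 2 free bases between, was matched only by CXCL10 among the 8 and by 3.65% of all promoters, while TGATGNAA, bound by ATF4 with C/EBP factors, was matched by 0 of the 8 and by 3.67% of all promoters. A match is only a description of the letters in this window.

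**Figure D1:**
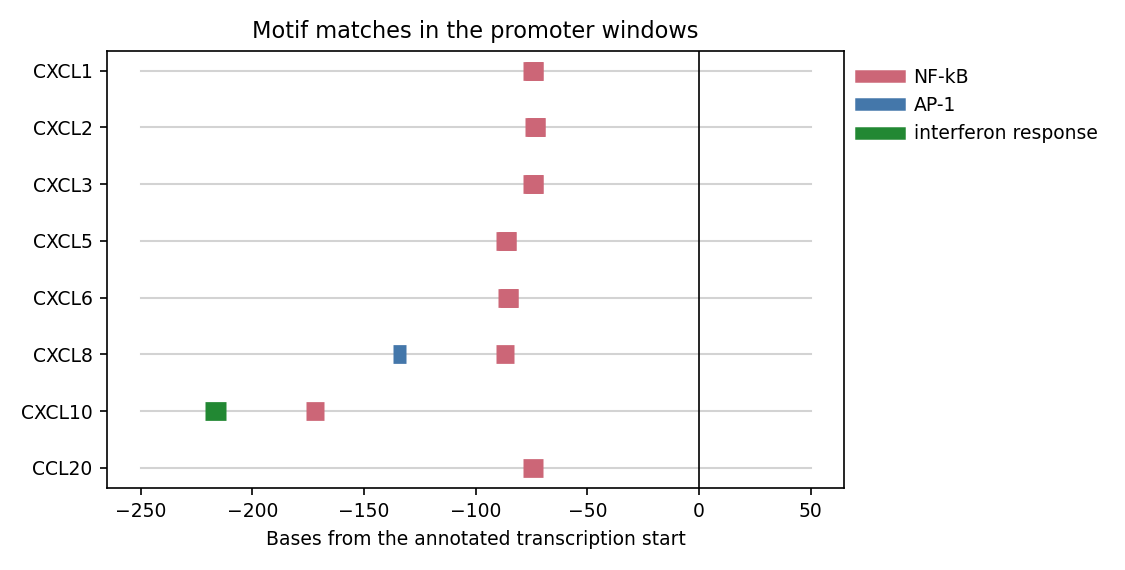
Motif matches in the promoter windows of 8 chemokine genes. Grey lines are the windows, from 250 bases before to 50 after the annotated start at 0, and coloured blocks are matches on either strand to the motifs of NF-kB, AP-1 and interferon response elements. The NF-kB matches of the CXC genes that attract neutrophils all begin between 77 and 91 bases before the start, whereas that of CXCL10 begins at -176.

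Read counts per gene, as deposited, summed to between 34838399 and 42271299 per library. They were scaled with the TMM factors of edgeR and compared with its quasi-likelihood test, and a gene was called at a Benjamini-Hochberg adjusted p under 0.05 over all genes tested together with a change of 2-fold or more. Among the 14728 genes with enough counts 3998 (27.1%) were called, 1833 of them higher (12.4%) and 2165 lower (14.7%) after rhCYGB. The median log2 fold change over all tested genes was -0.0046, and libraries of different groups correlated at most at 0.929 across genes, against at least 0.987 within a group. The epithelial keratins KRT8 and KRT18 were abundant in all libraries, while EPCAM was at 0 counts and CDH1 at 2 counts or fewer. The summed level of the 6 epithelial markers was between 3840 and 4070 CPM in untreated and between 2960 and 3170 CPM in rhCYGB libraries. CPM are counts relative to the scaled library size. The 4 of these markers that were tested lay between -0.81 and 0.49 on the log2 scale, with KRT8 at -0.81 and KRT18 at 0.04. The leukocyte markers PTPRC, CD3E and TYROBP were at 0 in all libraries, and the summed level of the list, nearly all of it CD68, was between 34.4 and 38.1 CPM in untreated and between 70.7 and 73.2 CPM in rhCYGB libraries. The summed level of the 4 endothelial markers was between 109 and 122 CPM against between 10.5 and 13.6 CPM, nearly all of it CDH5, with PECAM1 and KDR at 0 throughout. That of the 6 fibroblast markers was between 144 and 155 CPM against between 11.4 and 13.3 CPM, with DCN and LUM at 0, and the difference lay in COL1A2 (142 and 6.86 CPM on average), while ACTA2 was at 5.61 and 5.30 CPM. The 5 acinar markers summed to at most 0.156 CPM. The part of these markers in the results below was not tested. In libraries made from whole cultures, fewer cells that express a gene and less RNA per cell cannot be told apart.

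The neutrophil-attracting chemokines differed widely in level and in their difference between the groups. Of the 10 genes, CXCL1, CXCL2, CXCL3, CXCL5 and CXCL8 were higher after rhCYGB, CXCL6 and CXCL16 were lower, and CXCL10, CCL2 and CCL20 had too few counts for the fit. The untreated and rhCYGB libraries did not overlap for any of the 7 genes that were fitted, which was also true of 79.5% of all genes tested (39.8% higher and 39.7% lower). The genes were chosen on this contrast, so nothing is read from that count. The median log2 fold change of the 7 was 1.71. Together the 10 genes held between 0.0335% and 0.0374% of the read counts of untreated libraries and between 0.198% and 0.201% of those of rhCYGB libraries. The share of CXCL8 within these counts was between 22.7% and 25.4% in untreated and between 60.4% and 61.9% in rhCYGB libraries.

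CXCL8, also known as interleukin-8, is a strong attractant of neutrophils. Its level per transcript length, in the deposited FPKM, which relate fragments to transcript length and to library depth, was 51.4, 46.4 and 41.999 in untreated libraries 1, 2 and 3, and 681, 643 and 655 in rhCYGB libraries 1, 2 and 3. The groups were far apart, and the lowest rhCYGB library was 12.5 times the highest untreated library. From the counts (3342, 3594 and 2928 against 49412, 43046 and 46490), the log2 fold change was 4.01 (standard error 0.0639), or 16.1-fold. By mean FPKM over the group, CXCL8 moved from place 1347 to place 110 among all 35993 genes.

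CXCL3 had the largest fold change of the 7 fitted genes. Its FPKM was 3.83, 4.29 and 3.90 in the untreated libraries and 94.1, 93.4 and 95.5 in the rhCYGB libraries. The 3 rhCYGB libraries were close to each other, with 94.3 ± 1.09 FPKM (mean ± SD, n = 3). The log2 fold change from the counts was 4.71 (standard error 0.0586), or 26.2-fold. CXCL2, whose protein is closely related to CXCL3, had 13.1, 13.7 and 10.3 FPKM in untreated and 65.3, 68.4 and 73.3 FPKM in rhCYGB libraries. The untreated libraries of CXCL2 varied more, with the third library lowest, and the log2 fold change was 2.64 (standard error 0.0830), or 6.23-fold.

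CXCL1 was the most abundant of the 10 genes in untreated cells, with 98.9, 94.7 and 95.0 FPKM, against 219, 208 and 226 FPKM after rhCYGB. Its log2 fold change of 1.34 (standard error 0.0380), or 2.53-fold, was the smallest among the 5 genes that were higher. CXCL5, a related attractant, had 32.3, 33.4 and 30.6 FPKM in untreated and 98.8, 86.3 and 96.6 FPKM in rhCYGB libraries, a log2 fold change of 1.71 (standard error 0.0482), or 3.28-fold. The lowest rhCYGB library, the second in both genes, was 2.1 times the highest untreated library for CXCL1 and 2.59 times for CXCL5. Thus CXCL1, CXCL2 and CXCL3, whose promoter windows are the near copies shown above, had 2.53-fold, 6.23-fold and 26.2-fold differences.

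CXCL6 differed in the opposite direction from CXCL5, the gene whose promoter window it most resembles. It had 59, 39 and 51 counts in the untreated libraries and 11, 14 and 15 in the rhCYGB libraries, or 0.745 ± 0.214 and 0.195 ± 0.0386 FPKM (mean ± SD, n = 3 each). The groups did not overlap, but the counts were low and the log2 fold change of -1.71 had a standard error of 0.344, larger than that of the other 6 fitted genes. On the log2(FPKM + 1) scale, which shrinks differences of weakly expressed genes, it was -0.54. CXCL16 had 12.90, 11.98 and 11.96 FPKM in untreated and 7.23, 6.73 and 7.02 FPKM in rhCYGB libraries, a log2 fold change of -0.67 (standard error 0.0597), or 1.59-fold lower. In the deposited transcript table CXCL16 overlaps MED11 and ZMYND15, and whether their reads were kept apart by strand is not given in the sources used here.

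The other three genes were at the limit of detection. CCL2 had 0 counts in all 6 libraries, where a count of 0 allows up to 3 counts, or between 0.0669 and 0.0902 CPM depending on the library. CCL20 had 2 counts in rhCYGB library 1 and 0 in the others. CXCL10 had 3, 4 and 3 counts in untreated libraries and 0, 0 and 3 in rhCYGB libraries, so that a difference was not detectable at this depth. Such limits cover only the counting error of reads and not the spread between libraries, and no molecular identifiers were used. In the deposited table CXCL10 overlaps ART3.

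**Figure D2:**
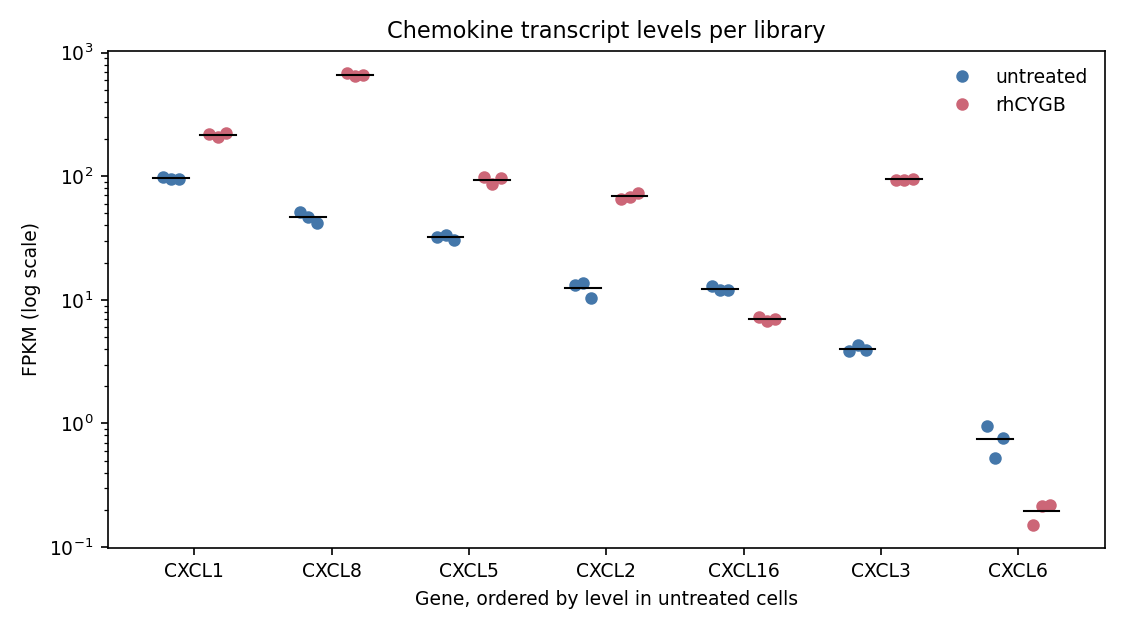
Levels of the 7 chemokines with enough counts, in FPKM on a log axis, for each library. Points are libraries, 3 per group, and black lines are group means. CXCL8 lies at 46.6 FPKM in untreated and 659.7 FPKM in rhCYGB cells on average, CXCL3 at 4.01 and 94.3 FPKM, and CXCL16 and CXCL6 are the genes whose rhCYGB points lie below the untreated points.

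The order of the levels per transcript length also differed between the groups. In untreated cells it ran CXCL1, CXCL8, CXCL5, CXCL2, CXCL16, CXCL3 and CXCL6, and the ranges of CXCL2 and CXCL16 overlapped (10.3 to 13.7 and 11.96 to 12.90 FPKM). After rhCYGB it ran CXCL8, CXCL1, CXCL3, CXCL5, CXCL2, CXCL16 and CXCL6, and the ranges of CXCL3 and CXCL5 overlapped (93.4 to 95.5 and 86.3 to 98.8 FPKM). No other neighbours in either order overlapped. The mean FPKM of CXCL1 was 24.01 times that of CXCL3 in untreated cells and 2.31 times after rhCYGB.

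Some stretches of the CXCL1, CXCL2 and CXCL3 transcripts are identical, and reads from these could be assigned to the wrong gene. In the GENCODE 29 transcripts, 5.73% of the windows of 50 bases of CXCL1, 9.24% of those of CXCL2 and 5.26% of those of CXCL3 occurred in a transcript of another gene, all of them in each other. No window of 100 bases was shared by any of the 10 genes with another gene, and CXCL6 and CXCL8 shared no window of 50 bases. The read length is not given in the sources used here, so the levels of CXCL1, CXCL2 and CXCL3 carry this uncertainty.

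Transcript usage was not part of how the genes were chosen and was compared with a two-sided exact permutation test over the 6 libraries, in which the smallest possible p is 0.10. CXCL1, CXCL8 and CXCL16 had counts on more than 1 annotated transcript. For CXCL8, transcript NM_000584 held 98.6% ± 0.256 of the gene's counts in untreated and 99.6% ± 0.0866 in rhCYGB libraries (SD, n = 3 each, exact p = 0.10, adjusted over the 3 genes 0.15). The shorter NM_001354840 had 37, 57 and 44 counts in untreated and 157, 169 and 228 in rhCYGB libraries. For CXCL16, transcript NM_022059 held 96.5% ± 0.479 in untreated and 93.3% ± 1.62 in rhCYGB libraries (exact p = 0.10, adjusted 0.15). The groups did not overlap in either gene, but the design cannot reach 0.05. How often this occurs among all genes with several transcripts was not computed, so nothing is read from it. The share of NM_001511 of CXCL1 was 90.5% ± 2.13 and 89.8% ± 0.572 (exact p = 0.60), a difference within the spread between libraries.

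Most of the fitted genes lie together. In the deposited transcript table, whose human genome build is not named, CXCL8 (74606286 to 74609433), CXCL6 (74702395 to 74704477), CXCL1 (74735110 to 74737025), CXCL5 (74861359 to 74864394), CXCL3 (74902306 to 74904406) and CXCL2 (74962757 to 74964912) form a cluster on chromosome 4. CXCL10 lies farther along the same chromosome (76942271 to 76944650), CXCL16 (4636828 to 4643223) and CCL2 (32582304 to 32584222) are on chromosome 17, and CCL20 (228678558 to 228682272) is on chromosome 2. These positions are not those of GRCh38 given with the sequences. Differences of either sign occurred side by side, CXCL6 lying between CXCL8 and CXCL1, although the lower value of CXCL6 rests on low counts.

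Within 500 kb of the chromosome 4 genes 35 other genes are annotated, of which 13 had enough counts, 4 being called higher and 1 lower, against 12.4% and 14.7% of all genes tested. Next to the cluster lie EPGN, EREG and AREG, which encode ligands of the EGF receptor family. EREG rose from 288 ± 11.5 to 976 ± 59.3 CPM (mean ± SD, n = 3 each), a log2 fold change of 1.76 (adjusted p = 4.41e-14 from edgeR's test). AREG rose by 1.21 (adjusted p = 6.71e-13) and EPGN by 1.21 (adjusted p = 1.74e-07) on the log2 scale, whereas MTHFD2L, which lies between CXCL2 and EPGN, was at -0.59, under 2-fold. The platelet chemokine genes PF4 and PPBP, inside the cluster, had at most 10 and 2 counts in any library. Near CXCL10, the lysosomal amidase gene NAAA fell by 1.96 (adjusted p = 3.90e-11) and STBD1, for a glycogen-binding protein, rose by 1.38 (adjusted p = 3.94e-10). Around the chromosome 17 genes 2 of 29 fitted neighbours were called higher and 3 lower, and around CCL20 1 of 2 was called higher, against the same shares of all genes. None of these counts was tested as a group.

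**Figure D3:**
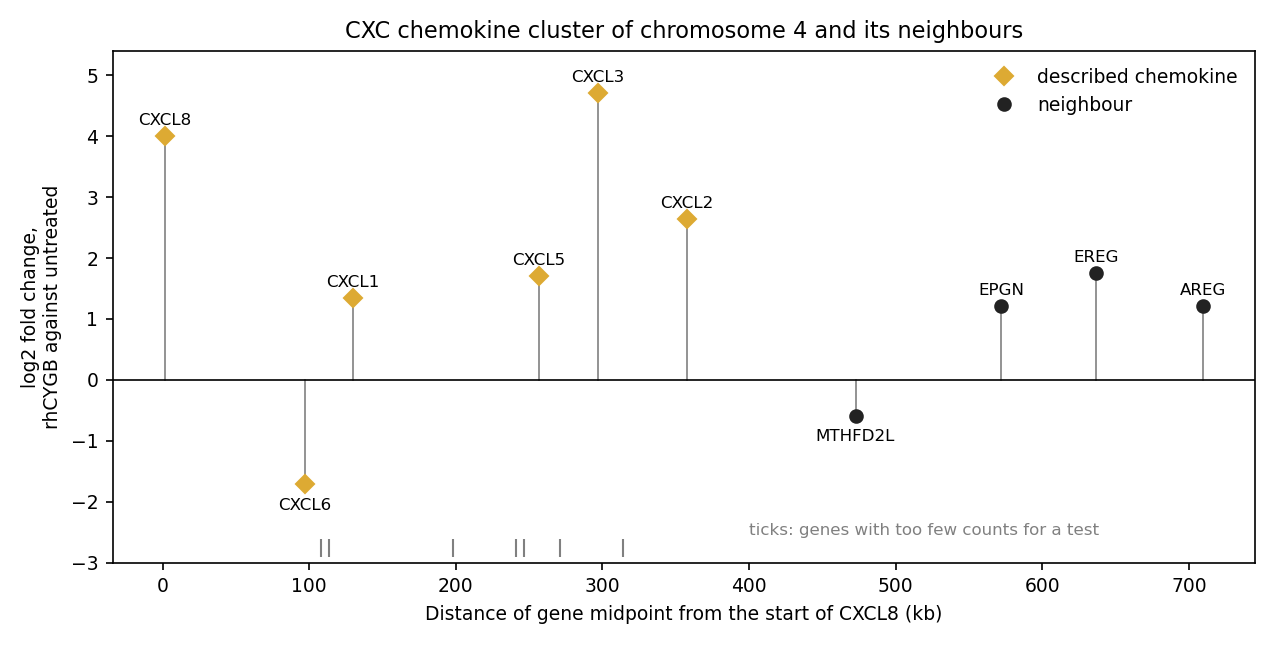
Log2 fold change of rhCYGB against untreated cells along the CXC chemokine cluster of chromosome 4, from CXCL8 to AREG. The horizontal axis is the distance of each gene's midpoint from the start of CXCL8 in kb, diamonds are the described chemokines, circles are neighbouring genes, and ticks mark genes that the filter on low counts removed. CXCL6 at -1.71, a value from low counts, lies between CXCL8 at 4.01 and CXCL1 at 1.34. The EGF-family genes EPGN, EREG and AREG lie above 1.

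Among the other 37 chemokine ligand genes, 28 had 0 counts in all libraries and 6 had too few for the test. The 3 that were tested were CCL22, CX3CL1 and CCL5. CCL22, a ligand of CCR4, had 22, 29 and 21 counts in untreated and 232, 177 and 232 counts in rhCYGB libraries, and rose by 3.34 on the log2 scale (standard error 0.189, edgeR adjusted p = 2.55e-10). CX3CL1, or fractalkine, rose from 0.870 ± 0.265 to 3.48 ± 0.357 CPM (n = 3 each, log2 fold change 1.99, edgeR adjusted p = 1.67e-06), although on the log2(FPKM + 1) scale its difference was 0.59. CCL5, an attractant of T cells and monocytes, had 314, 456 and 277 counts against 315, 249 and 299, a log2 fold change of -0.08 (edgeR adjusted p = 0.604) that did not exceed the spread between libraries.

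The receptors for the described ligands were mostly not detected. CXCR1, CXCR2, CXCR3 and CXCR6 were at 0 counts in all 6 libraries, the limit being 3 counts, while CCR2 had 5 counts in a single rhCYGB library and CCR6 at most 7 in any library. Of 23 receptor genes only 3 were tested, 0 being called higher and 1 lower, against 12.4% and 14.7% of all genes. Their median log2 fold change was -0.996. ACKR3, a scavenging receptor of CXCL12, fell from 14.2 ± 0.910 to 6.22 ± 1.08 CPM (n = 3 each, log2 fold change -1.19, edgeR adjusted p = 2.07e-07) and was the 1 gene called. CXCR4, the signalling receptor of CXCL12, had 18, 17 and 16 counts against 39, 21 and 29 (log2 fold change 0.98), and CCR10 had a log2 fold change of -0.996, so both stood just under the 2-fold limit. The count of called receptors was 4 without untreated library 1, without rhCYGB library 2 or without rhCYGB library 3, and 2 without rhCYGB library 1. The filter on low counts was run again in each of these fits, so receptors beyond the 3 above could enter the test.

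Genes of the pathways known to act on these chemokines were taken from lists that were chosen with earlier results of these data known. Of 21 tested NF-kB subunits, kinases and feedback genes 6 were called higher and 0 lower, against 12.4% and 14.7% of all genes. The median log2 fold change was 0.57, and the share called (28.6%) was near the 27.1% of all genes called in either direction. The subunit gene RELB rose from between 42.8 and 53.5 to between 198 and 205 CPM (log2 fold change 2.05, edgeR adjusted p = 1.83e-13) and RELA by 1.05. NFKB1, at 0.35, was under 2-fold. Among the feedback inhibitors TNFAIP3 rose by 2.47, NFKBIB by 1.92 and NFKBIA by 1.04 on the log2 scale. RELA, NFKBIA and, named after its values were seen, NFKB2 at 1.01 were just above the 2-fold limit. Scaled by total counts RELA and NFKBIA were at 0.88 and 0.88, with 3 genes of the list called, and without untreated library 3 NFKBIA was at 0.99. By the adjusted p alone, which 77.6% of all genes passed, 17 genes of the list were higher and 1 lower.

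Receptors and adaptors upstream of NF-kB did not share a direction. Of 22 tested genes 2 were called higher and 6 lower, against 12.4% and 14.7% of all genes, with a median log2 fold change of -0.32. TLR4 and its partner LY96, which recognise bacterial lipopolysaccharide, were at 0 counts in all libraries. Their co-receptor CD14 fell from 152, 182 and 170 counts to 6, 9 and 9 (log2 fold change -4.18, edgeR adjusted p = 4.02e-10), and the adaptor MYD88 fell from 13.4 ± 0.600 to 2.34 ± 0.623 CPM (log2 fold change -2.51). The interleukin-1 receptor IL1R1 fell by 1.83 and the TNF receptor TNFRSF1B by 1.48, whereas the kinase IRAK2 rose by 1.46.

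Of 14 tested genes for other inflammatory cytokines 9 were called higher and 1 lower, against 12.4% and 14.7% of all genes, with a median log2 fold change of 1.29. TNF had 27, 29 and 30 counts in untreated and 205, 196 and 236 in rhCYGB libraries (log2 fold change 3.08, edgeR adjusted p = 3.52e-10). The interleukin-1 genes IL1A and IL1B, whose products induce CXC chemokines in many cells, rose by 2.59 and 1.40, IL12A by 2.53, IL32 by 2.35 and LIF by 1.81 on the log2 scale. With log2(FPKM + 1), IL1B was at 0.99, under 2-fold. IL6, often induced together with CXCL8, was at 0 counts in all 6 libraries. TSLP, named after its values were seen, had 0 counts in each untreated library and 19, 37 and 20 in the rhCYGB libraries, at least 9.80-fold higher when the untreated libraries are set at 3 counts each, and the median of the list was the same with this bound.

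Of 16 tested AP-1, C/EBP and ATF factors 11 were called higher and 0 lower, against 12.4% and 14.7% of all genes, with a median log2 fold change of 1.21. CEBPB, a factor known to bind the CXCL8 promoter, rose from 51.9 ± 6.79 to 414 ± 5.52 CPM (log2 fold change 3.00, edgeR adjusted p = 9.73e-15). ATF3 rose by 5.57, DDIT3 by 4.09, CEBPG by 2.23 and ATF4 by 1.95. Of 15 regulators of AU-rich mRNA decay 4 were called higher and 0 lower, against 12.4% and 14.7% of all genes. The median log2 fold change was 0.54, and the share called (26.7%) was near the 27.1% of all genes called in either direction. These 4 were ZFP36, ZFP36L1 and ZFP36L2, which promote decay, at 1.28, 1.91 and 1.80, and DUSP1, a phosphatase that acts on p38 kinase, at 2.26.

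The interferon-stimulated genes, the group to which CXCL10 belongs, had 2 of 20 tested genes called higher and 6 lower, against 12.4% and 14.7% of all genes, and a median log2 fold change of -0.31. ISG15 rose by 1.82 and RSAD2 by 1.77, while OAS3 fell by 1.74, IFI6 by 1.70 and GBP1 by 1.34. With log2(FPKM + 1), RSAD2 was at 0.91 and GBP1 at -0.68, both under 2-fold. Among the 8 tested proteases that shed or trim chemokines 1 was called higher and 1 lower, with a median of -0.03, and these 2 are a share near the 27.1% of all genes called. ADAM10, a sheddase of CXCL16, was at -0.69, under 2-fold. ADAM17 rose from 57.6 ± 1.18 to 122 ± 3.796 CPM (log2 fold change 1.08, edgeR adjusted p = 2.97e-12), or by 0.91 on the log2 scale when scaled by total counts. MMP14 fell by 1.03, a call that was lost without untreated library 2 or without rhCYGB library 3, when 1 protease was called.

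**Figure D4:**
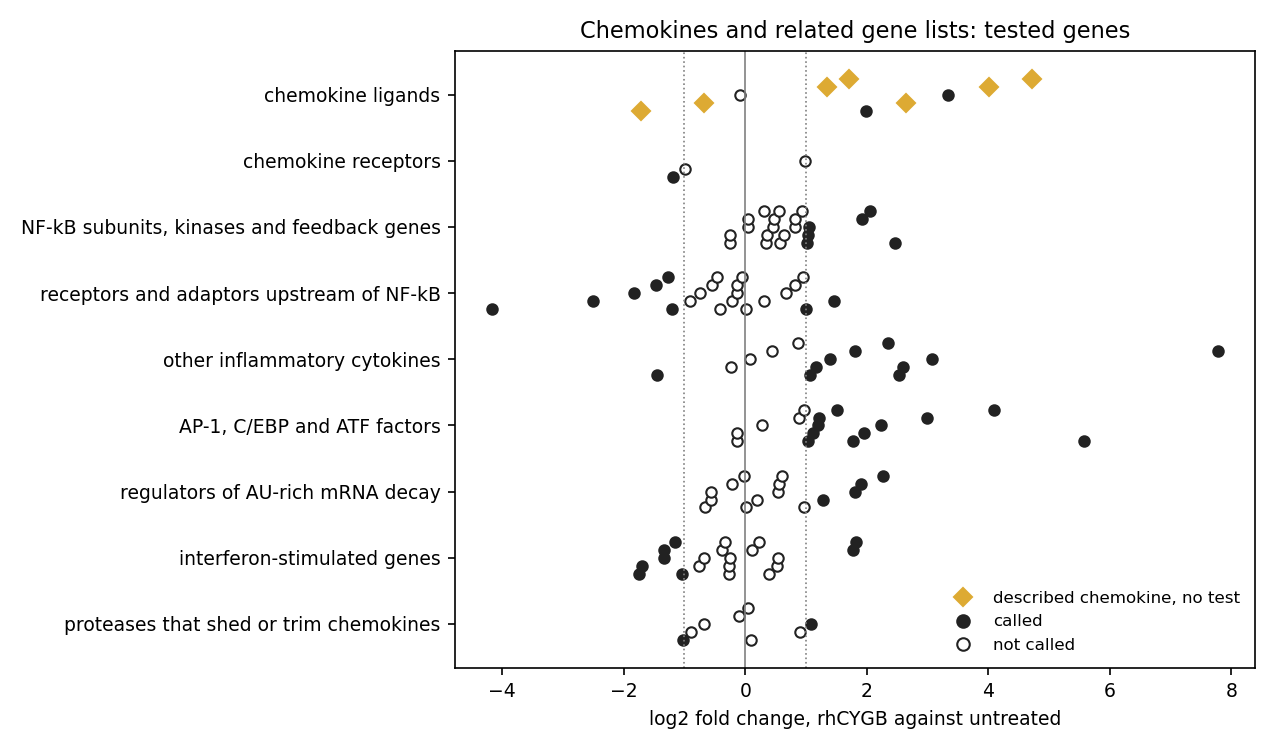
Log2 fold change of rhCYGB against untreated cells for all tested genes of the chemokine list and of 8 related lists. Each symbol is a gene, diamonds are the described chemokines (no test), filled circles were called and open circles were not, and dotted lines mark 2-fold. The ligands spread from -1.71 for CXCL6 to 4.71 for CXCL3, and the cytokine symbol at 7.79 is TSLP, whose fitted value rests on 0 counts in the untreated libraries.

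The gene pattern most like that of CXCL8 was sought by the Euclidean distance between log2 CPM values over the 6 libraries, each gene being centred on its untreated mean, among 12756 tested genes with a mean of at least 1 CPM. The nearest were SIK1, a salt-inducible kinase (distance 0.175), DDIT3, the stress-induced factor CHOP (0.249), PPP1R15A, a phosphatase subunit that acts on eIF2-alpha (0.316), NDRG4 (0.373) and GPR1 (0.382). Their log2 fold changes were 4.10, 4.09, 3.84, 3.83 and 3.95, against 4.01 for CXCL8. With only 2 groups this measure reflects mainly the size of the difference between them.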

How the data were processed

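RNA-seq was performed by the authors on 3 untreated and 3 rhCYGB-treated MIA PaCa-2 libraries, prepared with a stranded mRNA kit. According to the methods and the submitters' processing notes, reads were checked with FastQC 0.11.7, and trimmed reads were mapped with HISAT2 2.1.0 and assembled with StringTie 2.1.3b. Whether counting used strand is not given in the sources used here. The submitters' notes list mm10, a mouse build, although the deposited identifiers are human. The authors deposited read counts per gene and per transcript, which are not normalized, and FPKM values. The TPM values deposited by the authors (12 columns) were not used.

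Counts were filtered with filterByExpr, which left 14728 of 35993 genes and 99.97% of counts, and were fitted with edgeR 4.0.16 in R 4.3.3 (TMM, glmQLFit, glmQLFTest) on all 6 libraries without a block. Genes were called at an adjusted p under 0.05 and 2-fold. Standard errors were taken from the fold change and its F statistic, and log2 CPM used a prior count of 2. The methods of the paper name no model for RNA-seq counts. The members and lists were chosen with earlier results of these data known. Named genes were the members, up to 5 called genes per list with at least 1 CPM in the higher group, genes of known role for these ligands, and the 5 nearest to CXCL8. A few list genes are not reported here. Neighbours of the members and genes at a limit were named in addition, after their values were seen. No library was a copy of another, since the chi-square per degree of freedom within groups was between 4.67 and 6.61. Deviations of libraries with the same number correlated at -0.0479, 0.00715 and 0.00554, so the numbers were not taken as pairs. The fits were run on simulated data in which far fewer genes were changed than the 27.1% called here, in both directions alike. The scaling between the groups was not tested by this.

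Alternatives were limma 3.58.1 with 1 or 0.1 added to FPKM before log2, DESeq2 size factors, upper-quartile factors, total counts, the Wald test of DESeq2 1.42.0, no filter, at least 10 counts in every library, counts summed from transcripts, the replicate number as a block, leaving out each library, and the adjusted p alone. Promoters were aligned with Biopython 1.88.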

Additional observations from a re-analysis of the deposited data

How the results depend on the processing

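The 7 fitted chemokines kept their direction under all 16 alternatives. Their median of 1.71 was 1.57 with upper-quartile factors, 1.55 with total counts, 1.52 with limma on log2(FPKM + 1) and 1.54 with log2(FPKM + 0.1). Upper-quartile factors and total counts moved the median of all tested genes to -0.146 and -0.169, and the share of higher genes among called genes from 45.8% to 35.5% and 33.9% (35.5% with log2(FPKM + 0.1)). Of all genes 1977 were called with log2(FPKM + 1) and 11427 with the adjusted p alone, against 3998.
The number of called receptors was 2 in place of 1 with DESeq2 size factors, upper-quartile factors, total counts, the DESeq2 test, no filter, or 10 counts in every library, and 3 with the adjusted p alone. It was between 1 and 4 without single libraries, where the filter on low counts was run again and the tested receptors could differ. Of the NF-kB list 3 were called with upper-quartile factors, total counts and both limma fits, and 18 with the adjusted p alone. With log2(FPKM + 1), 5 upstream receptors and adaptors, 5 cytokines, 4 interferon-stimulated genes and 0 proteases were called, and with log2(FPKM + 0.1) 1 protease. With 10 counts in every library, which tests fewer genes, 5 upstream genes were called. The adjusted p alone called 17 of 22 upstream genes, 13 of 15 decay regulators, 19 of 20 interferon-stimulated genes and 6 of 8 proteases. Of all genes tested 77.6% passed it. Between 1 and 2 proteases were called without single libraries. The cause was not tested.
With the replicate number as a block 3978 genes and 2 receptors were called, and 2 of the 6 libraries correlated best with their own number. The difference in the CXCL1 transcript share, -0.708 percentage points, was 0.131 without untreated library 3 and between -1.91 and 0.131 without single libraries.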
